A study of Mus musculus with 4 samples.

Results

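The ERVK families are the class II endogenous retroviruses of the mouse, and they include the IAP (intracisternal A particle) and ETn (early transposon) elements. Their rows were taken from the raw count table, where a transposable element is named by its own name, its family and its class, and every row with the family ERVK was kept. There were 285 such rows among 1153 rows of transposable elements, and the table also lists 55335 genes. Each row sums the reads assigned to the genomic copies of 1 element type. Of the 285 rows, 46 hold internal regions and 239 hold long terminal repeats (LTRs). RNA-seq was performed on AB2.2 mouse ESCs, a single ESC line grown on mouse embryonic fibroblast (MEF) feeders in serum medium with LIF, CHIR99021 and PD0325901. There were 2 control libraries and 2 libraries of cells given 50 mM lactate for 24 h. No other difference in culture between the groups is stated, nor is a vehicle for the control. The labels do not say whether the libraries of a group came from separate cultures, so the spread between them may be technical.

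An ERVK provirus carries retroviral genes in an internal region between a pair of LTRs, and the LTR holds the promoter. Most copies have lost the internal region by recombination and persist as solitary LTRs. IAP and ETn elements still move in the mouse genome, and ETn elements, which lack coding genes, depend on proteins of the related MusD elements. In mouse ESCs these families are restrained by KRAB zinc finger proteins, which recruit TRIM28 and the H3K9 methyltransferase SETDB1, together with DNA methylation.

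Reads counted on genes numbered between 18067562 and 19077885 per library, and transposable elements held between 7.36% and 9.41% of all counts. The share of mitochondrial reads among gene reads was 5.48% and 5.72% in the libraries numbered 1 and 2.43% and 2.82% in those numbered 2, of control and lactate respectively. Of the 8 ESC markers, all were detected, and Pou5f1, Nanog and Sox2 each had an FPKM above 150 in every library, the lowest being 156 for Sox2 in control replicate 1. The 12 fibroblast markers of the feeders were all detected too, with summed levels of 633 and 848 CPM in control against 642 and 684 CPM in lactate, where CPM stands for reads per 1e6 gene reads with TMM factors taken from genes. The 9 markers of two-cell-like ESCs summed to 15.2 and 12.3 CPM in the control and to 38.5 and 33.5 CPM in the lactate libraries. Of the 6 that passed the filter on low counts all 6 were higher, with a median log2 difference of 1.44. Usp17la, with 7 reads in each control library and 38 and 29 in lactate, passed only through its lactate counts, so its direction carries no weight. The paper reported Zscan4 genes, Zfp352, Tcstv3 and Sp110 as raised by lactate, so these markers are no separate support. Adjusted p-values of the 6 were no lower than 0.0535 by edgeR. By DESeq2, 4 were under 0.05, where 1.76% of all rows were higher. Primitive endoderm markers, 6 genes, summed to 8.31 and 7.31 CPM in the control and 14.8 and 11.9 CPM in the lactate libraries. The part of either cell type in the ERVK values was not tested. In bulk RNA, more or fewer cells of one type and more or less RNA per cell cannot be told apart.

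To see whether lactate altered ERVK transcripts as a group, the reads of all 285 rows were summed. ERVK rows held 22151 and 17067 CPM in control replicates 1 and 2 and 23539 and 18375 CPM in lactate replicates 1 and 2. The groups overlapped, and the libraries numbered 1 lay above those numbered 2 in both groups. The mean was 19609 ± 3595 CPM in control and 20957 ± 3652 CPM in lactate (SD, n = 2), a ratio of 1.07, and the means differed by less than the spread between replicates. On the log2 scale the ratio was 0.096, and it was 0.28 without control replicate 1, −0.086 without control replicate 2, −0.12 without lactate replicate 1 and 0.26 without lactate replicate 2. With 2 libraries against 2, a two-sided permutation test cannot give a p below 0.33, so p-values are taken only from models fitted across all rows.

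A few rows held most of these reads. MMETn-int, the internal region of an ETn element, held 46.1% of all ERVK reads and ETnERV-int a further 17.5%. The 10 most abundant rows, of which 7 were internal, held 74.8%. The other large rows were IAPEz-int, RLTR45-int, RMER16-int, RLTR13G, RLTR19-int, RMER6A, MMERVK10C-int and RMER19B. Without MMETn-int and ETnERV-int, the remaining 283 rows summed to 7838 and 6470 CPM in control and 8231 and 6963 CPM in lactate, so the groups overlapped there as well.

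Of the 285 rows, 266 passed the filter on low counts. Among the 19 that did not pass, 18 were LTR rows, 5 had no read in any library, and none had more than 21 reads in a library. The tested rows were compared by edgeR's quasi-likelihood test, fitted together with all genes and elements. By edgeR, 0 ERVK rows had an adjusted p under 0.05, a threshold that 0.847% of all 19593 rows tested passed (0.48% higher and 0.367% lower). The smallest adjusted p-value of an ERVK row was 0.0550 (edgeR). Without adjustment, 14 rows were higher and 5 lower at p under 0.05, which is 7.14% of the ERVK rows against 22.2% of all rows tested. DESeq2 gave 6 rows higher and 2 lower at an adjusted p under 0.05, or 2.26% and 0.752% of the ERVK rows, against 1.76% and 2.44% of all rows. These 8 were IAPEY3-int, IAPEY2_LTR, ETnERV3-int, RLTR50B, RLTR13B2 and RMER16-int, all higher, and IAPEy-int and ERVB4_2-I_MM-int, both lower. The same 8 rows had an adjusted p under 0.05 in edgeR without the filter on low counts, where 1.94% of all rows were higher and 1.87% lower.

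The differences were small for most rows. Log2 differences ranged from −1.22 for BGLII_C to 1.30 for RLTR50B, the only rows past 2-fold, with a median of 0.079. Of the 266 rows, 172 lay between −0.25 and 0.25, which is about the size of a standard error, whose median over the rows was 0.23. Values above 0 were seen for 168 rows (63.2%) and below 0 for 98, beside 76.1% above 0 for all element rows and 51.0% for genes. The ERVK share depended on the scaling, since it was 74.8% when the libraries were scaled by gene totals alone and 53.4% when they were scaled to the total of all elements. It was 72.7% without control replicate 1, 45.6% without control replicate 2, 38.8% without lactate replicate 1 and 75.6% without lactate replicate 2. The 2 lactate values exceeded both control values for 51 rows (19.2%, against 27.1% of all rows tested) and fell short of both for 28 rows (10.5%, against 24.9%).

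**Figure D1:**
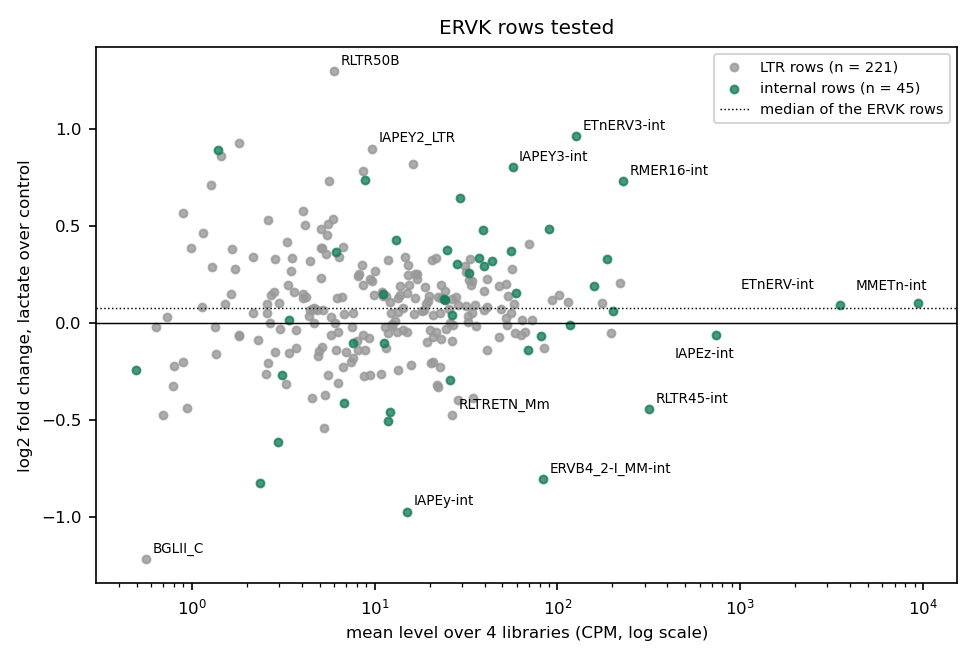
Each point is 1 of the 266 ERVK rows tested, with its mean level over the 4 libraries in CPM on the x axis (log scale) and its log2 difference, lactate over control, on the y axis. Internal rows are green and LTR rows grey. The most abundant rows, MMETn-int and ETnERV-int, sit close to the dotted median of 0.079, and RLTR50B and BGLII_C are the only rows past 1 in either direction.

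IAP elements encode retroviral proteins whose particles bud into the endoplasmic reticulum and stay inside the cell. As a group, the 25 IAP rows held 1161 and 1185 CPM in control replicates 1 and 2 and 1162 and 1168 CPM in lactate replicates 1 and 2. The control mean of 1173 ± 17.5 CPM and the lactate mean of 1165 ± 3.92 CPM (SD, n = 2) gave a ratio of 0.993. The groups overlapped. Of the 24 IAP rows tested, 13 were above 0 and 11 below, with a median log2 difference of 0.012.

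Most of the group sum came from IAPEz-int, the internal region of the most abundant IAP type, with 757 and 758 CPM in control and 737 and 712 CPM in lactate. Both lactate values were lower, but the log2 difference was −0.064 ± 0.14 (SE). It was 0.0022 when the libraries were scaled by gene totals alone. The 6 LTR rows set beside it mostly overlapped between the groups. IAPLTR1_Mm had 57.7 and 77.3 CPM in control and 57.1 and 73.9 CPM in lactate, and IAPLTR2_Mm had 26.04 and 25.8 CPM in control and 25.2 and 26.6 CPM in lactate. IAPLTR1a_Mm varied between the lactate libraries, at 13.6 and 25.5 CPM against 21.5 and 27.8 CPM in control. IAPLTR2a, IAPLTR2a2_Mm and IAPLTR2b had log2 differences of 0.20, 0.16 and 0.14, each about 1 standard error or less.

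The less abundant IAPE-type rows differed in both directions. IAPEY3-int, an internal row, had 43.5 and 39.4 CPM in control and 74.0 and 70.6 CPM in lactate. Both lactate libraries stood well above both controls, at 72.3 ± 2.41 against 41.4 ± 2.91 CPM (SD, n = 2). Its log2 difference was 0.80 ± 0.13 (SE), at an adjusted p of 0.0550 by edgeR and 0.00731 by DESeq2, the smallest p of any ERVK row in edgeR. IAPEY2_LTR was higher as well, with 7.04 and 6.52 CPM in control and 12.0 and 13.3 CPM in lactate, a log2 difference of 0.90 ± 0.18 (SE), at an adjusted p of 0.0665 by edgeR and 0.0391 by DESeq2. IAPEY4_I-int had 36.4 and 35.3 CPM in control and 44.1 and 43.8 CPM in lactate, a narrow gap that did not overlap, with a log2 difference of 0.30 at an adjusted p of 0.256 by edgeR.

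IAPEy-int went the other way. It had 21.7 and 18.2 CPM in control and 10.6 and 9.72 CPM in lactate, so that both lactate libraries lay at about the level of 10.1 ± 0.611 CPM (SD, n = 2). The log2 difference was −0.97 ± 0.18 (SE), at an adjusted p of 0.0600 by edgeR and 0.00827 by DESeq2. IAP1-MM_I-int was also lower in both lactate libraries, with 14.5 and 13.3 CPM in control and 11.1 and 8.55 CPM in lactate, and IAPA_MM-int had 3.64 and 3.53 CPM in control and 1.93 and 2.73 CPM in lactate. Their log2 differences were −0.51 and −0.61, with adjusted p-values of 0.206 and 0.237 (edgeR). IAPEY_LTR had a log2 difference of −0.39. Over all alternatives tried, IAPEY3-int kept a log2 difference between 0.73 and 0.87 and IAPEy-int one between −1.10 and −0.86. Besides DESeq2, the adjusted p-value of IAPEY3-int was under 0.05 in edgeR with gene totals alone (0.0489), without the filter on low counts (0.0117) and when either of the lactate libraries was left out. That of IAPEy-int was under 0.05 without the filter (0.0133), without control replicate 2 and when either of the lactate libraries was left out.

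IAP-d-int (78.7 and 87.5 CPM in control, 70.5 and 88.2 CPM in lactate) and IAPLTR3-int (26.04 and 26.4 CPM, then 28.5 and 25.5 CPM) overlapped between the groups. So did IAPLTR4, IAPLTR4_I, IAPEY3_LTR, IAPEY3C_LTR, IAP1-MM_LTR, IAPEY4_LTR and IAPEY5_I-int, whose log2 differences ran from −0.24 to 0.32. IAPLTR3 was slightly higher, on 15 and 20 reads in control and 26 and 25 in lactate. IAPEY5_LTR, the IAP row that did not pass the filter, had 6 and 7 reads in control and 21 and 3 in lactate.

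**Figure D2:**
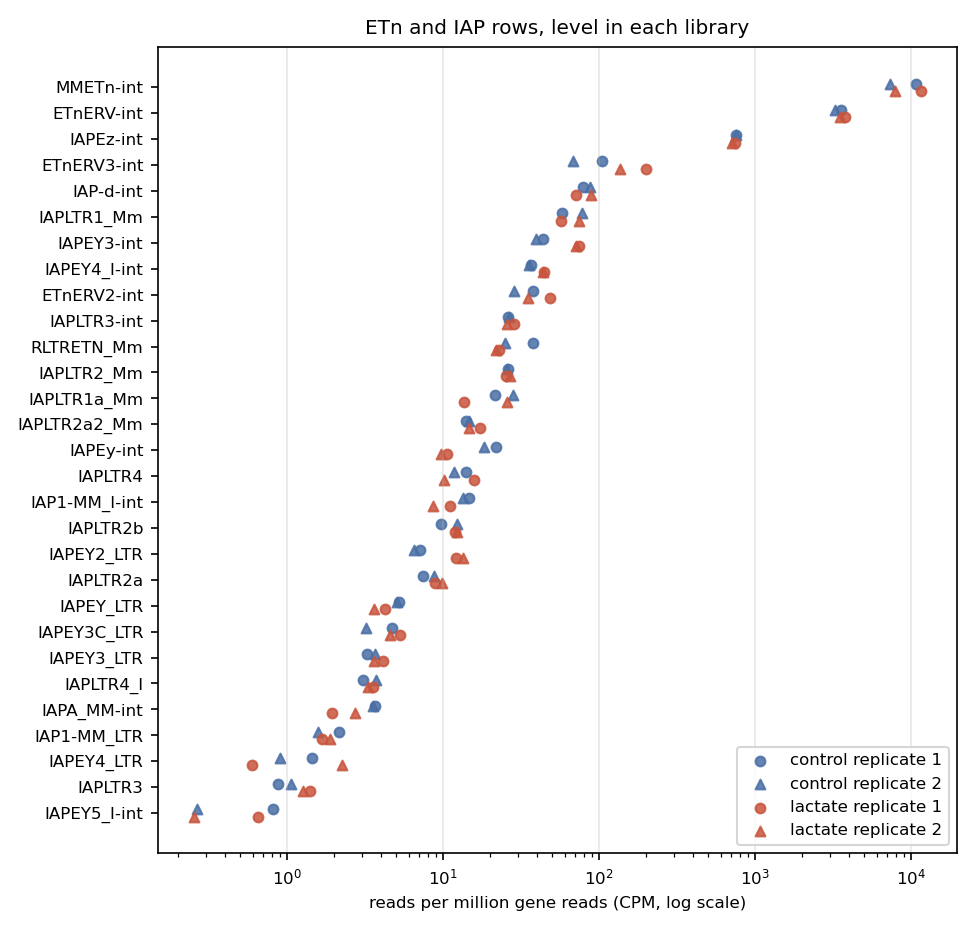
Level of each ETn and IAP row in each library, in CPM on a log scale, with control libraries in blue and lactate libraries in red (circles, replicate 1, triangles, replicate 2). The red points of IAPEY3-int and IAPEY2_LTR lie to the right of the blue points and those of IAPEy-int to the left, whereas those of IAPEz-int, at 712 and 737 CPM, lie next to the controls at 757 and 758.

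ETn rows carried most ERVK reads, with 14492 and 10718 CPM in control and 15579 and 11604 CPM in lactate over 5 rows. MMETn-int had 10747 and 7328 CPM in control and 11516 and 7918 CPM in lactate. The difference between replicates of a group was larger than the difference between groups, and the log2 difference was 0.10 ± 0.28 (SE). It was 0.39 without control replicate 1, −0.15 without control replicate 2, −0.22 without lactate replicate 1 and 0.35 without lactate replicate 2. ETnERV-int had 3567 and 3268 CPM in control and 3792 and 3493 CPM in lactate, a log2 difference of 0.092 ± 0.16 (SE). Neither of these abundant rows could be separated from the controls.

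ETnERV3-int, at a far lower read number, was higher in both lactate libraries. It had 103 and 68.4 CPM in control and 199.6 and 136 CPM in lactate, and the lower lactate library stood above the higher control. The log2 difference was 0.97 ± 0.26 (SE), at an adjusted p of 0.112 by edgeR and 0.0109 by DESeq2. It ranged from 0.64 to 1.28 over all alternatives, and without lactate replicate 2 its adjusted p-value in edgeR was under 0.05. ETnERV2-int had 37.6 and 28.6 CPM in control and 48.6 and 35.1 CPM in lactate, which overlap, with a log2 difference of 0.34. RLTRETN_Mm, the LTR row set beside these internal rows by hand, had 37.4 and 24.7 CPM in control and 22.8 and 21.8 CPM in lactate. Both lactate values were lower, the controls differed widely, and the log2 difference was −0.48 ± 0.22 (SE), at an adjusted p of 0.272 by edgeR.

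Among the other proviral types, MMERVK10C-int, an element known to be derepressed when TRIM28 or SETDB1 is lost, had 175 and 158 CPM in control and 227 and 191 CPM in lactate. The groups did not overlap, and the log2 difference was 0.33 ± 0.15 (SE), at an adjusted p of 0.262 by edgeR. Its LTR, RLTR10C, had 34.4 and 34.1 CPM in control and 37.4 and 35.6 CPM in lactate, a log2 difference of 0.092. RLTR45-int was lower in both lactate libraries, with 407 and 324 CPM in control and 309.9 and 227 CPM in lactate, and had a log2 difference of −0.44 at an adjusted p of 0.265 by edgeR. RMER16-int was higher, with 196 and 149 CPM in control and 304 and 269.7 CPM in lactate, a log2 difference of 0.73 ± 0.18 (SE), at an adjusted p of 0.0889 by edgeR and 0.0231 by DESeq2. RLTR13G, RLTR19-int, RMER6A and RMER19B, the remaining abundant rows, had log2 differences of 0.21, 0.060, −0.054 and 0.10, each smaller than its standard error.

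ERVB rows, grouped by the start of their names, split in direction, with 9 of 18 tested rows above 0 and 9 below. ERVB4_2-I_MM-int had 117 and 95.9 CPM in control and 66.5 and 55.2 CPM in lactate. Its log2 difference was −0.80 ± 0.17 (SE), at an adjusted p of 0.0701 by edgeR and 0.0107 by DESeq2. By contrast, ERVB4_1B-I_MM-int had 27.9 and 17.8 CPM in control and 40.0 and 31.5 CPM in lactate, and ERVB4_1-I_MM-int had 7.91 and 5.37 CPM in control and 11.4 and 10.7 CPM in lactate. Both ERVB3_1 rows were higher on few reads, the internal row with 18 and 17 reads in control and 34 and 35 in lactate, and ERVB3_1-LTR_MM with 23 and 22 reads in control and 44 and 47 in lactate. ERVB4_3-I_MM-int had 43 and 67 reads in control and 34 and 31 in lactate.

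The largest difference belonged to the LTR row RLTR50B, with 4.27 and 2.68 CPM in control and 8.38 and 8.70 CPM in lactate. It was 2.46-fold higher, with a log2 difference of 1.30 ± 0.26 (SE), at an adjusted p of 0.0680 by edgeR and 0.0105 by DESeq2. DESeq2 called it, as the only ERVK row past 2-fold, when 1.9% of all rows were called past 2-fold. Among LTRs of the RLTR13 type, RLTR13B2 was higher, and so was RLTR13D5, which is known for enhancer activity in trophoblast stem cells. These rows were picked by their values. Other RLTR13 rows went both ways, from −0.27 for RLTR13D3A to 0.57 for RLTR13D. RLTR13B2 had 11.3 and 12.1 CPM in control and 18.0 and 23.3 CPM in lactate, a log2 difference of 0.82 ± 0.19 (SE), at an adjusted p of 0.0855 by edgeR and 0.0411 by DESeq2. RLTR13D5 had 7.10 and 5.63 CPM in control and 12.0 and 9.92 CPM in lactate, a log2 difference of 0.79 ± 0.22 (SE), at an adjusted p of 0.115 by edgeR. In edgeR, the adjusted p-value of RLTR50B was under 0.05 when either of the lactate libraries was left out, that of RLTR13B2 and of IAPEY2_LTR without lactate replicate 1, that of RMER16-int without lactate replicate 2, and that of ERVB4_2-I_MM-int without control replicate 2 or lactate replicate 1. RLTR44-int, MLTR31C_MM and RLTR53B_Mm had log2 differences of 0.48, 0.73 and 0.86. BGLII_C, the row with the lowest value, rested on 11 and 18 reads in control and 4 and 9 in lactate.

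**Figure D3:**
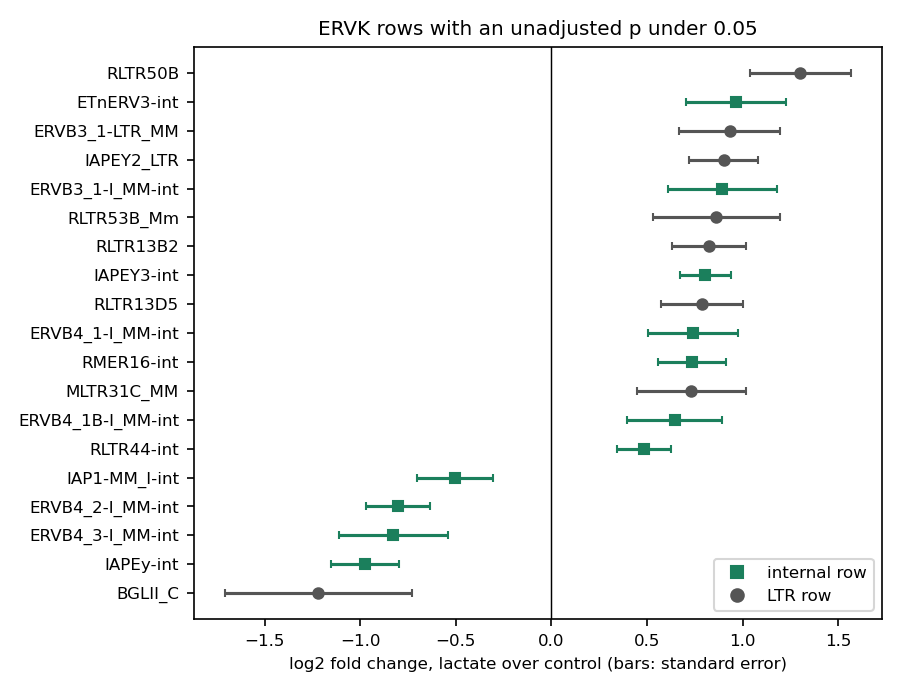
Log2 difference, lactate over control, of the 19 ERVK rows with an unadjusted p under 0.05 in edgeR, with bars for the standard error. Squares are internal rows and circles LTR rows. RLTR50B lies highest at 1.30 and BGLII_C lowest at −1.22, and none of the 19 had an adjusted p-value under 0.05.

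Internal rows were set beside their LTR rows, because an intact provirus contributes reads to both. The pairs were made from the names and from known structures, and 31 internal rows had at least 1 LTR row. Rows are not corrected for length, so the ratio of internal to LTR reads is compared between libraries and not between elements. Over all paired rows, log2 of internal over LTR reads was 3.91 and 3.74 in control and 4.04 and 3.78 in lactate. The groups overlapped, and the mean difference of 0.087 was between −0.044 without lactate replicate 1 and 0.22 without lactate replicate 2. Over all internal rows against all LTR rows, the difference was 0.025.

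Single pairs moved apart more than these sums. Of the 28 pairs with at least 10 reads on either side in every library, the ratio was higher in both lactate libraries for 12, lower in both for 7 and overlapping for 9. Among all single rows tested, 27.1% were higher and 24.9% lower without overlap, and no such share was computed for ratios. ETnERV3-int stood at a log2 ratio to RLTRETN_Mm of 1.47 in each control library and of 3.13 and 2.64 in lactate. The same LTR row serves as the partner of the 4 ETn internal rows, so their ratios, all higher with lactate, share its values and are not separate observations. RLTR10C is likewise shared by MMERVK10C-int and RLTR10-int, and ERVB4_1B-LTR_MM by ERVB4_1B-I_MM-int and ERVB4_1-I_MM-int. The ETn ratios hold for RLTRETN_Mm alone. ERVB7 LTR rows, which have no internal row of that name, were not set beside any internal row. Of these, ERVB7_1-LTR_MM had 57.7 and 28.8 CPM in control and 41.8 and 36.7 CPM in lactate, which overlap. MMETn-int had log2 ratios to RLTRETN_Mm of 8.17 and 8.21 in control and 8.98 and 8.51 in lactate, and its own level overlapped between the groups.

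IAPEy-int and the sum of the 2 LTR rows set beside it by hand diverged most in the opposite sense. The log2 ratio of IAPEy-int to IAPEY_LTR and IAPEY2_LTR was 0.83 and 0.65 in control and −0.62 and −0.80 in lactate. The internal row was lower in the lactate libraries, whereas the sum of the LTR rows was 11.9 ± 0.469 CPM in control and 16.6 ± 0.445 CPM in lactate (SD, n = 2). That rise came from IAPEY2_LTR alone. IAPEY_LTR was lower, as IAPEy-int was, with 5.20 and 5.05 CPM in control and 4.24 and 3.59 CPM in lactate. For IAPEY3-int the ratio was higher instead, with log2 ratios of 2.46 and 2.52 in control and 2.99 and 3.12 in lactate. For RMER16-int the ratio was 2.13 and 2.05 in control and 2.81 and 2.87 in lactate, while its 8 LTR rows summed to 40.4 ± 6.11 and 40.2 ± 4.75 CPM (SD, n = 2). In ERVB3_1 internal and LTR rows were higher together, with log2 ratios between −0.43 and −0.35 in all libraries. IAPEz-int kept its ratio, at 2.47 and 2.19 in control and 2.46 and 2.13 in lactate.

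**Figure D4:**
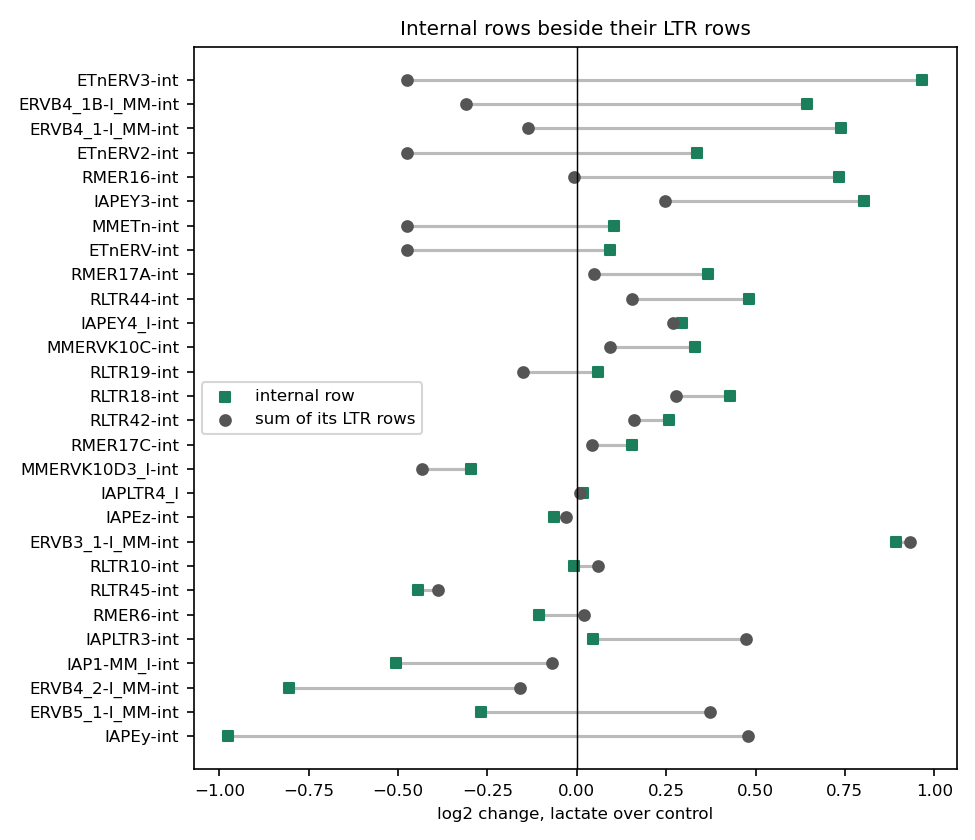
Log2 change, lactate over control, of each internal row (green squares) and of the sum of its LTR rows (grey circles) for the 28 pairs with at least 10 reads on either side in every library. ETnERV3-int, at 0.97 beside −0.48, and IAPEy-int, at −0.97 beside 0.48, have the widest gaps, and the ERVB3_1 rows, at 0.89 and 0.93, lie together. The LTR sum beside IAPEy-int joins IAPEY2_LTR, at 0.90, and IAPEY_LTR, at −0.39.

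The ERVK rows were compared with the LTR families most like them. The median log2 difference was 0.079 over the 266 ERVK rows, 0.21 over 97 ERV1 rows, 0.21 over 90 ERVL rows and 0.13 over 90 ERVL-MaLR rows, beside 0.14 over all 932 element rows and 0.010 over genes. Summed ERV1 reads were 2908 and 2710 CPM in control and 3811 and 3405 CPM in lactate, and ERVL reads, which include MERVL, were 2249 and 2119 CPM in control and 2918 and 2910 CPM in lactate, so for both of these the groups did not overlap. Summed ERVL-MaLR reads were 7807 and 7140 CPM in control and 8332 and 7553 CPM in lactate, which overlap, as the ERVK sums did. The ratios of lactate to control were 1.28 for ERV1, 1.33 for ERVL and 1.06 for ERVL-MaLR, beside 1.07 for ERVK. At an unadjusted p under 0.05, 14.4% of ERV1 rows, 8.89% of ERVL rows and 2.22% of ERVL-MaLR rows were higher, beside 5.26% of ERVK rows and 11.4% of all rows tested. Element rows are not replicates of the treatment, and with 2 libraries in each group the difference between families was not tested.

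**Figure D5:**
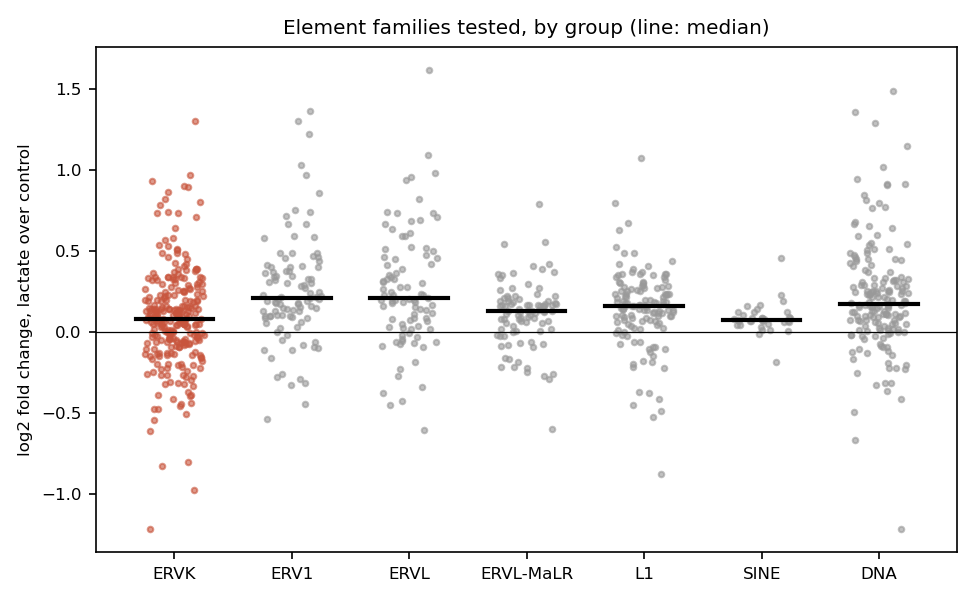
Log2 differences, lactate over control, of the element rows tested, by family or class, with a black line at the median and ERVK in red. The ERVK line lies at 0.079, beside 0.21 for ERV1 and ERVL and 0.13 for ERVL-MaLR.

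A hand-written list of genes tied to retrotransposon silencing was examined in the same fit. Not every member is known to repress ERVK elements, and Tet1 and Tet2 encode enzymes that act against DNA methylation. The list had 53 genes, of which 51 were found under these symbols and all 51 passed the filter. None had an adjusted p-value under 0.05 in edgeR, 2 were higher and 11 lower at an unadjusted p under 0.05 (3.92% higher and 21.6% lower, against 11.4% and 10.8% of all rows tested), and the median log2 difference was −0.017. DESeq2 found 1 at an adjusted p under 0.05, Ehmt2, which was lower (1.96% of the list, against 2.44% of all rows lower). The median was −0.11 without control replicate 2 or without lactate replicate 1 and 0.11 without lactate replicate 2.

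In the axis of TRIM28, the corepressor that KRAB zinc finger proteins bring to the LTR, Trim28 had FPKM of 956 and 985 in control and 759 and 633 in lactate, lower in both lactate libraries. Its log2 difference was −0.44 ± 0.16 (SE), at an adjusted p of 0.193 by edgeR. Setdb1 had FPKM of 60.7 and 60.9 in control and 50.3 and 51.5 in lactate, a log2 difference of −0.30 at an adjusted p of 0.251 by edgeR. Zfp568, which encodes a KRAB zinc finger protein, was higher, with FPKM of 62.0 and 72.4 in control and 98.4 and 123 in lactate, a log2 difference of 0.52 at an adjusted p of 0.119 by edgeR. Zfp809, whose protein binds the primer binding site of retroviruses, had FPKM of 67.2 and 44.0 in control and 69.5 and 39.0 in lactate, which overlap. Among the other zinc finger genes on the list, Zfp932, Gm15446 and Zfp57 were higher without overlap in scaled counts. Their log2 differences were 0.37, 0.41 and 0.17, at adjusted p-values of 0.258, 0.284 and 0.510 by edgeR. Zfp708, Zfp91 and Rex2 overlapped, at 0.23, 0.042 and −0.044.

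Among genes of histone and DNA methylation, Ehmt2, which encodes the H3K9 methyltransferase G9a, had FPKM of 51.2 and 61.7 in control and 32.3 and 34.6 in lactate, a log2 difference of −0.84 ± 0.18 (SE), at an adjusted p of 0.0711 by edgeR and 0.0062 by DESeq2. Dnmt3b, a de novo DNA methyltransferase gene, had FPKM of 31.6 and 30.9 in control and 21.9 and 22.2 in lactate, with a log2 difference of −0.59 at an adjusted p of 0.0723 by edgeR. Dnmt1, for the maintenance methyltransferase, and Uhrf1, for its cofactor, had log2 differences of −0.46 and −0.50, with adjusted p-values of 0.139 and 0.135 (edgeR). Ehmt1, Dnmt3a and Dnmt3l had −0.24, −0.18 and −0.41. Other genes of this kind were higher, with 0.16 and 0.34 for the H3K9 methyltransferase genes Suv39h1 and Suv39h2 and 0.20 and 0.51 for Tet1 and Tet2.

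Kdm1a, for a histone demethylase, had −0.43. The histone chaperone genes with an unadjusted p under 0.05 in edgeR, Daxx, Hira, Ubn1, Cabin1 and Chaf1b, had −0.48, −0.44, −0.39, −0.33 and −0.37. Of the other chaperone genes on the list, Chaf1a had −0.30, Asf1a 0.22 and Ubn2 0.11. Rif1 was higher at 0.47. In scaled counts, lactate and control values did not overlap for the genes named in this paragraph except Ubn2. Over the whole list the same held for 16 of the 51 on the lower side (31.4%, against 24.9% of all rows tested) and 11 on the higher side (21.6%, against 27.1%). Whether these genes bear on the ERVK rows was not tested.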

How the data were processed

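Reads from AB2.2 mouse ESCs (2 control and 2 lactate libraries) were trimmed with cutadapt 1.16 and mapped to mm10 with STAR by the authors. They deposited raw counts, without normalization, of genes and of transposable element rows. The program that counted elements, its use of strand and its treatment of reads that map to several places are not given in the sources used here. Near-identical element types can therefore share or lose reads, and a row does not show which copies were transcribed. The authors also deposited FPKM per gene from RSEM, which give the levels of single genes here.

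The fit used edgeR 4.0.16 (R 4.3.3) in its legacy quasi-likelihood form without a replicate term,, with DESeq2 1.42.0 as an alternative. Library sizes and TMM factors came from gene rows only. All genes and elements that passed filterByExpr (19593 rows) were fitted together, with Benjamini-Hochberg adjustment over them all. The thresholds were 0.05 for the adjusted p and 2-fold for the size. A standard error is the log2 difference divided by the square root of F. Gene symbols came from GENCODE M21. Control libraries differed by more than sampling noise over the ERVK rows (chi-square per degree of freedom of 18.1), and so did the lactate pair (18.4), and all 4 entered as replicates.

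The rows named are the IAP and ETn rows that passed the filter, the MMERVK10C pair, the 10 most abundant rows, the 5 highest and the 5 lowest log2 differences, and rows of the pairs, with silencing genes at an unadjusted p under 0.05 and Trim28, Setdb1 and Dnmt1. RLTR13B2, RLTR13D5, RLTR13D3A, RLTR13D, MLTR31C_MM, RLTR53B_Mm and Zfp809 fall outside this rule and were named after their values were seen. The same holds for Chaf1a, Asf1a, Ubn2, Suv39h1, Suv39h2, Ehmt1, Dnmt3a, Dnmt3l, Tet1 and Tet2, and for Zfp932, Gm15446, Zfp57, Zfp708, Zfp91 and Rex2. ERVK rows and gene lists were chosen with earlier results of these data known. Other scalings, filters, DESeq2, a replicate block and each library left out were tried. No reference sequence of these elements was used here.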

Additional observations from a re-analysis of the deposited data

How the results depend on the processing

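The median log2 difference of the ERVK rows over 14 alternatives, the ratio of their summed reads over 10 and the ratio of internal to LTR reads over 5 moved by less than 1 SD between replicates. Those SDs (0.19, 0.26 and 0.16 in log2) were larger than the values themselves (0.079, 0.096 and 0.087). A change of sign could therefore pass this check, and each value did change sign in some fits with 1 library left out. Calls depended on the test. ERVK rows at an adjusted p-value under 0.05 numbered 0 in edgeR, 6 higher and 2 lower in DESeq2 (1 past 2-fold), 6 and 2 without the filter on low counts (1 past 2-fold), and 1 higher with gene totals alone. Of all rows, 1.76% were higher and 2.44% lower in DESeq2, 1.94% and 1.87% without the filter, and 0.607% higher with gene totals alone. The share of all rows called past 2-fold was 1.9% in DESeq2 and 2.12% without the filter. With a replicate block, edgeR gave 51 higher and 16 lower (2 past 2-fold, against 6% of all rows), or 19.2% and 6.02% of the ERVK rows, when 22.3% and 21.8% of all rows were higher and lower. The block put 27 of the 50 ERVK rows followed by name under 0.05, among them ETnERV3-int, ETnERV2-int, RLTRETN_Mm, MMERVK10C-int, RLTR45-int, IAPEY3-int and IAPEy-int. The 50 include the 19 rows at an unadjusted p under 0.05 in the main edgeR fit of the same libraries. Their count was thus partly fixed by that choice and supports nothing. DESeq2 with that block, chosen after seeing the data, gave 14 and 3 (1 past 2-fold, against 2.31% of all rows), or 5.26% and 1.13%, against 7% and 10.2% of all rows. Among the silencing genes, 1 was lower in DESeq2 (1.96%, against 2.44% of all rows) and 2 without the filter (3.92%, against 1.87%). The block gave 15 higher and 17 lower in edgeR (29.4% and 33.3%) and 6 and 14 in DESeq2 (11.8% and 27.5%). The deviations of same-numbered libraries from their group means correlated at 0.56 over all rows, but the labels do not say that a number marks a shared culture, and with 2 pairs the samples share only a number. The cause of these differences was not tested.

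With 1 library left out, the lone library of a group is assumed to vary like the other group. The median log2 difference of the silencing genes then ran from −0.11 to 0.11. Some log2 fold changes near 0 crossed it. With gene totals alone these were IAPEz-int (0.0022), IAP-d-int (0.0011), IAPLTR1_Mm (0.022), IAPLTR2_Mm (0.067), IAP1-MM_LTR (0.0046) and RMER6A (0.014). Scaled to the total of all elements they were IAPLTR3-int (−0.031), IAPLTR4 (−0.074) and IAPLTR4_I (−0.064). IAPLTR4 also had −0.0036 with TMM over genes and elements, −0.0039 without mitochondrial genes, −0.0083 with the block and −0.021 with the block in DESeq2, and IAPLTR2_Mm had 0.012 with at least 10 counts in every library and 0.00021 with the block. With 1 library left out, the ranges that crossed 0 were −0.24 to 0.059 for IAP-d-int, −0.28 to 0.15 for IAP1-MM_LTR, −0.97 to 0.91 for IAPEY4_LTR, −1.06 to 0.73 for IAPEY5_I-int, −0.26 to 0.18 for IAPLTR1_Mm, −0.86 to 0.024 for IAPLTR1a_Mm, −0.041 to 0.0094 for IAPLTR2_Mm, −0.029 to 0.31 for IAPLTR2b, −0.065 to 0.12 for IAPLTR3-int, −0.37 to 0.29 for IAPLTR4, −0.13 to 0.15 for IAPLTR4_I, −0.22 to 0.39 for MMETn-int, −0.11 to 0.60 for RLTR13G, −0.17 to 0.31 for RLTR19-int and −0.27 to 0.17 for RMER6A.

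Depth limits the sparse rows: BGLII_C had at most 18 reads in a library and IAPEY5_I-int at most 14.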
